A study of Mus musculus with 378 samples.

Results

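Aldh1a3, Gast, Cck, Serpina7 and Neurog3 are 5 genes that have been used as marks of beta cell dedifferentiation, the state in which an insulin-producing cell of the pancreatic islet loses mature features and takes up genes of other or earlier cell stages. They were found by symbol and are 5 of the 22180 genes in the deposited count table. Their sex difference and spread between mice had been seen in part in earlier results of these data, so those values describe the genes and are no independent test. Of the 5 genes, 4 passed the filter on low counts and Cck did not.

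The libraries were made from islets of the Diversity Outbred stock, whose mice are genetically unlike each other because each inherits a different mix of founder strains. All mice ate a high-fat, high-sugar diet listed as 45% fat, and the labels used here give no age. There were 190 males (45, 48, 50 and 47 in number bands 1 to 4) and, in the same order of bands, 46, 46, 49 and 47 females, with 1 library for each mouse. Messenger RNA was selected by its poly(A) tail and sequenced, so a library holds all cell types of the islet preparation. The bands are 4 stretches of 100 mouse numbers, used because the labels name no batch, and each holds both sexes. Within a band the females form 1 run of numbers and the males the next, apart from female mouse DO-191. Within a band, a difference between the sexes thus cannot be told apart from one between runs of mouse numbers. The part of such runs in the sex differences given below was not tested.

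Total counts were 17.2 to 68.8 M in male libraries and 15.1 to 45.9 M in female libraries (M, 1000000 counts). The libraries of number band 4 were the shallowest, with medians of 24.2 M in males and 23.97 M in females. The insulin genes Ins1 and Ins2 together took 13.5% of the counts in the median male library and 11.2% in the median female library. The Y-linked gene Ddx3y was at 0 in every female library and at 40.9 CPM (counts per 1000000 counts of the library) or more in every male library, and Xist was under 10 CPM in 2 female libraries. Without these 2 females the sex differences given below were 2.24 for Aldh1a3, 1.22 for Gast, 1.01 for Serpina7 and -0.14 for Neurog3 on the log2 scale, male minus female. The highest correlation between any pair of libraries was 0.989, and no pair held identical counts.

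In a mature beta cell, glucose entry and metabolism drive insulin release, and a set of transcription factors keeps the cell in that state. In mice with diabetes or metabolic overload, beta cells can lose part of this programme, and Aldh1a3 is the gene most often used to mark them. Neurog3 is the transcription factor that makes endocrine cells from progenitors in the embryonic pancreas, and gastrin and cholecystokinin are related gut peptide hormones, of which gastrin is also made in the fetal pancreas.

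The 5 genes lie on 5 chromosomes. On GRCm38, Aldh1a3 is at chr7:66390890-66427517 on the minus strand, Gast at chr11:100334407-100336996 on the plus strand, Cck at chr9:121489825-121495689 on the minus strand, Serpina7 at chrX:139079257-139085236 on the minus strand and Neurog3 at chr10:62133090-62134763 on the plus strand. All are protein-coding genes. Neurog3 overlaps Fam241b, named 2010107G23Rik in the deposited table and transcribed from the other strand. No source used here says whether strand was used in counting, so reads of this pair may not be told apart. Counts of Gast, Cck and Serpina7 were whole numbers in 100% of the libraries, with a tolerance of 0. Counts of Aldh1a3 were whole in 1.06% of them and those of Neurog3 in 6.35%, so the authors' counting gave these genes fractions of reads.

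The 250 bases before the start of transcription are shown for the 4 genes that have an entry in the RefSeq promoter table (GRCm38.p6). They were chosen because levels of 3 of them went together over all mice, mainly in males, and those of Neurog3 did not. They are chr11:100334157-100334406 on the plus strand for Gast, chr9:121495695-121495944 on the minus strand for Cck, chrX:139085237-139085486 on the minus strand for Serpina7 and chr10:62132840-62133089 on the plus strand for Neurog3. Capitals mark the E-box letters CANNTG, to which helix-loop-helix factors such as Neurog3 bind.
Gast: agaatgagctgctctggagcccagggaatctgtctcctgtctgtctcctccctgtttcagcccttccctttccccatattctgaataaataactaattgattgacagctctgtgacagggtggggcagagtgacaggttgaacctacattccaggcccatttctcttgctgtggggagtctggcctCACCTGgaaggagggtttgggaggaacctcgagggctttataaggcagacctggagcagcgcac
Cck: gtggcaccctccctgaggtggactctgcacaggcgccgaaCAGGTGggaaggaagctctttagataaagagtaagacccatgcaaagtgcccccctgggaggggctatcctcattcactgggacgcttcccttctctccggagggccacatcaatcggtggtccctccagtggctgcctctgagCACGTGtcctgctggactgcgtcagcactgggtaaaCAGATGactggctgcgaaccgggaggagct
Serpina7: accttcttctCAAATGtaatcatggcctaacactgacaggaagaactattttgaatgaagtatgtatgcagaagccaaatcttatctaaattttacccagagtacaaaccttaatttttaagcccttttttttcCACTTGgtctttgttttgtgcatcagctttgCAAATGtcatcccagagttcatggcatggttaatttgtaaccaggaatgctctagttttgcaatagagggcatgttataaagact
Neurog3: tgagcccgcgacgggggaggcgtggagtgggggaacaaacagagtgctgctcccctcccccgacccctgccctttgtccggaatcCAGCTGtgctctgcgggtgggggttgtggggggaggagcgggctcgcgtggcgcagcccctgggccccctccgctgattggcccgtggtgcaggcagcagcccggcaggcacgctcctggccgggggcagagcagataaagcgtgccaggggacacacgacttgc

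Each E-box reads as CANNTG on both strands. Gast holds 1 match, with its first base at -64 from the start, and Cck holds 3, at -210, -66 and -30. Serpina7 also holds 3, at -240, -116 and -85, and Neurog3 holds 1, at -165. Of 27025 promoter windows of the same length in the table, 66.04% hold at least 1 such match, and the median number is 1. The TATA box letters TATAAA were searched on both strands, and 12.97% of all windows hold them. They occur in Serpina7 at -10 on the strand shown. In Gast they occur at -28 on the other strand only, so the printed letters there are TTTATA. Cck and Neurog3 do not hold them. The cyclic AMP response element TGACGTCA, found in 1.62% of the windows, is not among the letters of the 4 windows. The E-box is thus the only 1 of these 3 motifs that all 4 windows hold, and most promoters hold it too.

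Aldh1a3 makes retinoic acid from retinaldehyde. It was found in every library and varied more between males than between females. Its level was 0.295 CPM in the lowest male, 4.35 CPM in the median male and 209.3 CPM in the highest, against 0.197, 2.26 and 24.8 CPM in the lowest, median and highest female. On a log scale the ranges overlapped over most of their length, and the highest males lay far above the highest female. A level of 5 times the median of their own sex or more was reached by 23 males and 6 females, and the 90th percentile was 34.7 CPM in males and 5.17 CPM in females.

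The fitted mean of Aldh1a3 was 4.74-fold higher in males, a log2 difference of 2.24 ± 0.18 (SE, edgeR, number band in the model). It was 1.79, 2.13, 2.33 and 2.72 in bands 1 to 4, and the male median was above the female median in each band. This fit compares means of counts. On the authors' deposited variance-stabilised values, a log2-like scale, the log2 difference was 0.84, and with scores of 6 other cell types in the model it was 1.03. Of all 16927 genes tested, 28.6% were called higher in males and 21.9% lower, 50.5% in all, so a sex difference as such was common in these islets. Gcg, which encodes glucagon, had a median of 10720 CPM in males and 23000 CPM in females, and Sst, which encodes somatostatin, had 915.2 and 1308 CPM. In bulk samples, fewer cells of a type and less RNA per cell cannot be told apart. The part of a shift in cell types in these differences was not tested beyond the fit with the scores. None of the 6 scores covers alpha, delta or PP cells.

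Serpina7 encodes the serpin that carries thyroxine in the blood, and its gene is on the X chromosome. It had 7.41 CPM in the lowest male, 35.98 CPM in the median male and 369.9 CPM in the highest, against 3.33, 22.8 and 110.0 CPM in the lowest, median and highest female. Most males lay within the range of the females, and the median was above the female one in all 4 bands. The fitted log2 difference was 1.02 ± 0.10 (SE), a 2.03-fold higher mean in males, and lay between 0.75 and 1.18 in the single bands. With the 6 cell type scores in the model it was 0.58.

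Gast encodes gastrin, which drives acid secretion in the stomach. Most libraries held only a few of its reads, and a small number of males held many. Its level was 0.0413 CPM in the lowest male, 0.316 CPM in the median male and 35.4 CPM in the highest, against 0, 0.296 and 3.85 CPM in the lowest, median and highest female. The medians thus nearly coincided. Of the libraries, 12 males and 19 females held 3 counts or fewer, and 3 counts were taken as what an observed 0 allows. A level of at least 5 times the median of the sex occurred in 12 males and 1 female.

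Gast rose in the fitted mean of males by 2.35-fold (log2 difference 1.23 ± 0.16, SE, adjusted p 3.12e-12 by edgeR's quasi-likelihood test with Benjamini-Hochberg adjustment). This size rested on male mice DO-201, DO-374 and DO-383, whose levels were 18.6, 35.4 and 21.2 CPM: without them the log2 difference was 0.57 (adjusted p 2.48e-06). DESeq2 gave 0.58 with all mice, and the variance-stabilised values gave 0.16. The log2 difference was 0.19, 1.595, 0.55 and 2.68 in bands 1 to 4, and differed between bands (interaction adjusted p 7.63e-05, edgeR), as it did for 0.898% of all genes. Without these 3 males it was 0.19, 0.79, 0.55 and 0.80 in the 4 bands, and the interaction had an adjusted p of 0.526.

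Cck encodes cholecystokinin, which is made in the gut and brain and, in obese mice, also in beta cells. In most islets it was at the edge of detection. It had 0 CPM in the lowest male, 0.069 CPM in the median male and 478.1 CPM in the highest, against 0, 0.0568 and 10.1 CPM in the lowest, median and highest female. No count was found in 44 males and 36 females, and 62.1% of the males and 67.6% of the females held 3 counts or fewer. The sexes differed most in their highest libraries: male mouse DO-374 had 478.1 CPM (13874 counts), and the next by CPM, male mouse DO-383, had 23.8 CPM (530 counts).

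Without the filter on low counts the fitted mean of Cck was higher in males by 3.25 on the log2 scale (adjusted p 8.39e-22, edgeR), where 23.5% of 22180 genes were called higher in males. Without mouse DO-374 the log2 difference was 2.18 (adjusted p 6.75e-15), and without mice DO-201, DO-374 and DO-383 it was 1.54 (adjusted p 1.34e-09). Median levels of Cck were 0.349 CPM in males and 0.293 CPM in females of band 4, against 0.03 to 0.0593 CPM in males and 0.0297 to 0.0493 CPM in females of bands 1 to 3. What sets band 4 apart is not in the labels, and its part in the level of Cck was not tested.

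No male excess was called for Neurog3. It had 0.16 CPM in the lowest male, 1.79 CPM in the median male and 24.3 CPM in the highest, against 0.314, 2.30 and 7.36 CPM in the lowest, median and highest female. The sexes overlapped nearly throughout: 3 males lay above the highest female, among them mice DO-396 and DO-179 with 24.3 and 15.4 CPM, and 2 lay below the lowest female. The log2 difference was -0.14 ± 0.09 (SE, adjusted p 0.168, edgeR). On the variance-stabilised values it was -0.12 and passed the threshold (adjusted p 0.0173, limma).

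**Figure D1:**
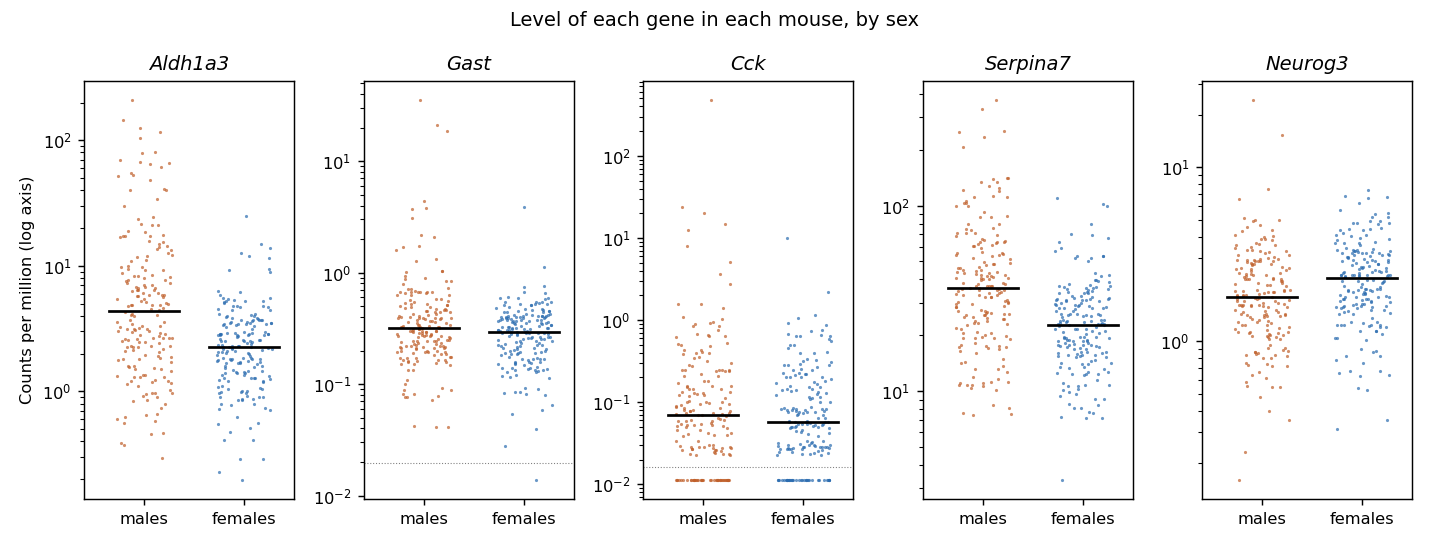
Level of each gene in CPM on log axes, 1 point per mouse, with males to the left of females and a line at the median; points under the dotted line in the Gast and Cck panels are libraries at 0. The highest points are male in all 5 panels, while the medians of Gast are close, at 0.316 CPM in males and 0.296 CPM in females.

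The bands differed in level for most genes: 87.8% of the 16927 genes were called between bands in the counts. With sex means removed, a median of 17.7% of the variance of log2 CPM lay between bands, over 14351 genes with a mean of at least 1 CPM, against 0.0288% in the deposited variance-stabilised values. The band difference is thus nearly gone from the deposited values, and the members' levels and band differences are given from the counts. For Aldh1a3 the bands were not called (adjusted p 0.302, edgeR, 3 degrees of freedom). Between band 4 and band 1 the log2 difference was -0.95 for Serpina7 (adjusted p of the band 2.22e-09, edgeR) and 0.51 for Neurog3 (5.04e-04). For Gast it was 0.75 (adjusted p 2.87e-05, edgeR), and without male mice DO-201, DO-374 and DO-383 it was -0.37 (adjusted p 0.118, edgeR). The median of Gast was 0.272 CPM in males and 0.244 CPM in females of band 4, against 0.324 CPM in males and 0.321 CPM in females of band 1, so the fitted direction for Gast rested on these mice. The longest transcript of Serpina7 has a GC content of 38.7%, below that of all but 3.79% of the tested genes, and those of Gast, Cck and Neurog3 have 55.7%, 56.95% and 57.3%. The part of base composition in the band differences was not tested.

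The genes were among the more variable ones of the islet at their level. With the mean of each sex and band combination removed, the SD of log2 CPM of Aldh1a3 was 1.55, against a median of 0.34 over 2023 genes of mean CPM within 1.5-fold, of which 3.46% were wider. For Serpina7 it was 0.93 against 0.21 over 2921 genes, of which 2.53% were wider. Cck had 1.38 against 0.55 (6.48% of 1575 genes wider), Gast 0.99 against 0.65 (16.2% of 1590) and Neurog3 0.83 against 0.52 (20.01% of 1589).

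The spread between males exceeded that between females for Aldh1a3 and Serpina7. The SD of log2 CPM of Aldh1a3, band means removed, was 1.91 in males and 1.07 in females, which was known when the gene was chosen. Serpina7 had 1.09 in males and 0.72 in females, and its absolute deviation from the median of sex and band was larger in males by 0.31 ± 0.06 on the log2 scale (SE, adjusted p 3.46e-04, limma). Cck had an SD of 1.75 in males and 0.88 in females, given with no test because it reached the mean of 1 CPM that the test needs only through male mouse DO-374. Gast had an SD of 1.21 in males and 0.71 in females and fell short of that mean. Neurog3 had 0.89 and 0.77 and was not called (adjusted p 0.407, limma). Of the 14351 genes in this test, 4.96% were called wider in males and 0.0836% wider in females.

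Across mice, Aldh1a3, Gast, Cck and Serpina7 tended to be high in the same libraries, mainly in males. In females alone Pearson's r between them was 0.026 to 0.28. Neurog3 did not rise with the 4 genes as a set, though it went with Aldh1a3 in females (r 0.32). To compare mice within a sex, the mean log2 CPM of each of the 8 sex and band combinations was removed from each gene. All 6 pairs among the 4 genes were positively correlated over all mice. Pearson's r was 0.57 for Aldh1a3 with Serpina7 (Spearman's rho 0.51), 0.52 for Aldh1a3 with Gast (rho 0.38) and 0.51 for Gast with Cck (rho 0.19). It was 0.44 for Aldh1a3 with Cck (rho 0.26), 0.43 for Gast with Serpina7 (rho 0.28) and 0.42 for Cck with Serpina7 (rho 0.27). Each r had a permutation p of 1e-05, the smallest that 100000 resamples within sex and band can give, and an adjusted p of 1.67e-05 over 10 pairs. For rho the raw p was also 1e-05 and the adjusted p 2e-05, except for Gast with Cck (raw p 3.8e-04, adjusted p 6.33e-04). The members were chosen with earlier results of these data known. The p-values of the pairs, here and between the sexes, are therefore no independent test.

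In all 6 pairs rho was below r. Without the 2 mice farthest from the median of the first gene of each pair, r was 0.56 for Aldh1a3 with Serpina7, 0.50 for Aldh1a3 with Gast and 0.40 for Gast with Cck. In the same comparison it was 0.42 for Aldh1a3 with Cck, 0.39 for Gast with Serpina7 and 0.37 for Cck with Serpina7. Without male mice DO-201, DO-374 and DO-383, r was 0.33 for Gast with Cck. None of the genes followed sequencing depth closely: the correlation with the log2 total count, as a description, was between -0.045 for Neurog3 and 0.11 for Aldh1a3.

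Among the 4 pairs with Neurog3, Pearson's r was called for Cck and was negative. Its r was -0.23 with Cck (rho -0.12, permutation p 9e-05, adjusted p 1.29e-04), 0.10 with Aldh1a3 (rho 0.14, p 0.0607, adjusted p 0.0759), -0.0095 with Gast (rho 0.002, p 0.863) and -0.096 with Serpina7 (rho -0.089, p 0.073, adjusted p 0.0811). For Aldh1a3 the rank correlation with Neurog3 did pass (adjusted p 0.0132).

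**Figure D2:**
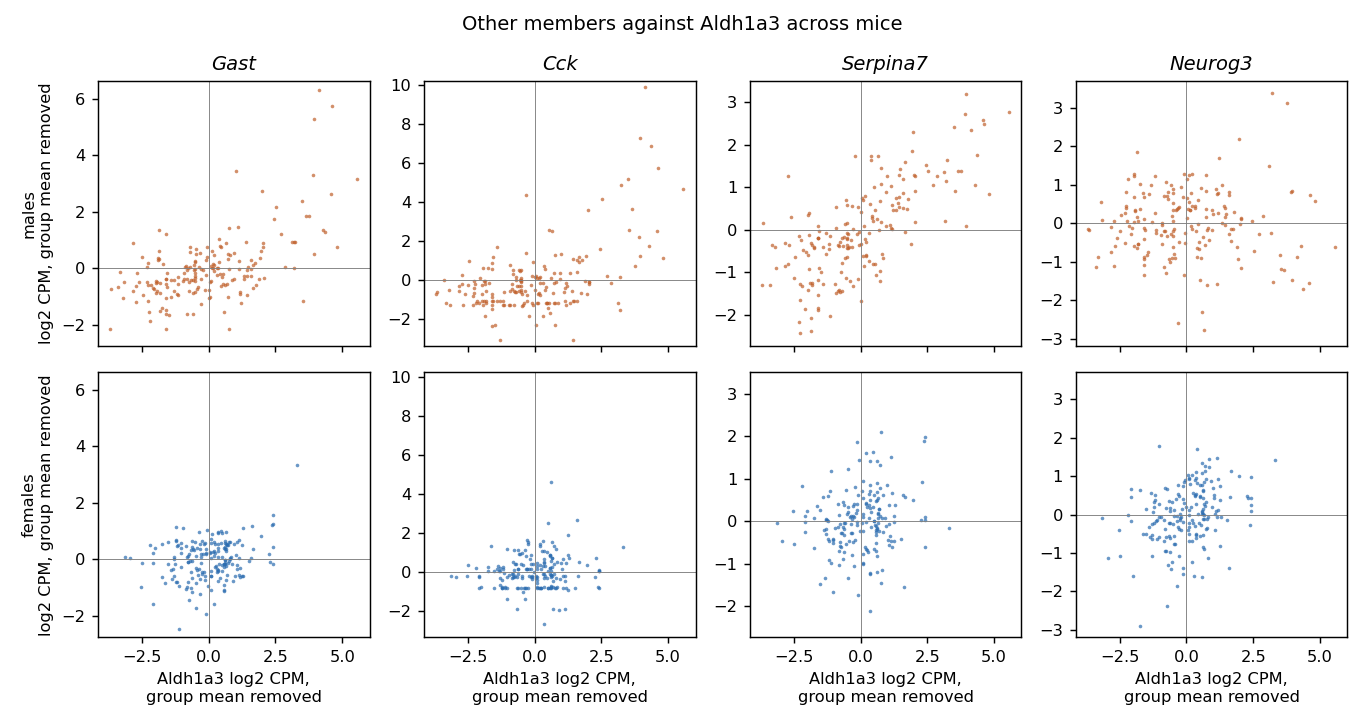
Log2 CPM of Gast, Cck, Serpina7 and Neurog3 (columns) against that of Aldh1a3, with the mean of each sex and number band combination removed, 1 point per mouse, males in the upper row and females in the lower. In males the upper right corner is filled for Gast, Cck and Serpina7 (r 0.59, 0.53 and 0.71), and in females it is nearly empty (r 0.28, 0.10 and 0.18).

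The relations among Aldh1a3, Gast, Cck and Serpina7 were closer in males than in females. For Aldh1a3 with Serpina7, r was 0.71 in males and 0.18 in females, a difference of 0.54 (permutation of sex within band, p 1e-05, adjusted p 1e-04 over 10 pairs). For Gast with Cck it was 0.65 in males and 0.026 in females (difference 0.62, adjusted p 1e-04), and for Gast with Serpina7 0.56 and 0.081 (difference 0.48, adjusted p 2.33e-04). For Aldh1a3 with Cck it was 0.53 in males and 0.10 in females (difference 0.43, adjusted p 4.75e-04), for Cck with Serpina7 0.52 and 0.13 (difference 0.39, adjusted p 0.00152), and for Aldh1a3 with Gast 0.59 and 0.28 (difference 0.31, adjusted p 0.0016). In females alone Aldh1a3 with Gast was the only one of these 6 pairs to be called. The smaller spread of females stands beside these values. Cck held 3 counts or fewer in 67.6% of females and 62.1% of males, and the median count of Gast was 9.5 in females and 11 in males. The part of the spread or of the low counts in the smaller r was not tested.

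Aldh1a3 with Neurog3 ran the other way. Here r was -0.0030 in males and 0.32 in females (difference -0.33, adjusted p 0.0106), and it was 0.34, 0.34, 0.26 and 0.39 in females of bands 1 to 4. The sex difference was -0.28 on the variance-stabilised values, where it was not called (adjusted p 0.0667). The other 3 pairs with Neurog3 were not called different between the sexes (adjusted p 0.123 to 0.279).

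**Figure D3:**
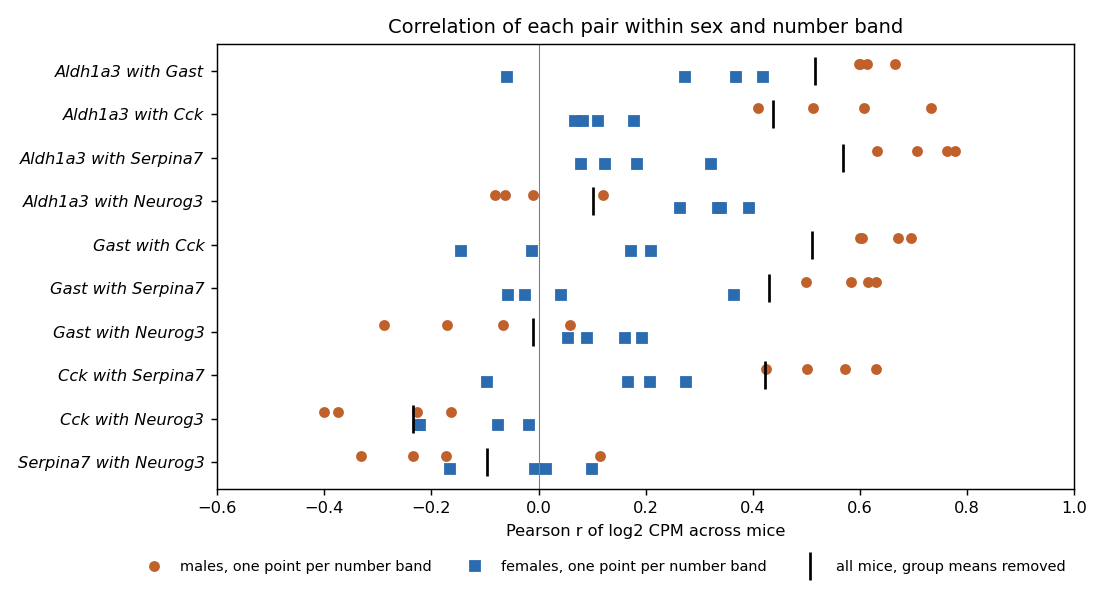
Pearson's r of log2 CPM for the 10 pairs, with 4 circles for males and 4 squares for females, 1 for each number band, and a bar for all mice with the sex and band means removed. For the 6 pairs among Aldh1a3, Gast, Cck and Serpina7 the male values run from 0.41 to 0.78 and the female values from -0.14 to 0.42.

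The overlap of the highest libraries was counted too. The 5 highest libraries of each sex and band combination, 40 for each gene and 10.6% of all, were compared between genes as a description. Aldh1a3 shared 16 of its 40 with Gast (40%), 14 with Serpina7, 13 with Cck and 11 with Neurog3. Of these shared libraries 6, 4, 2 and 7 were female, in the same order. Gast and Cck shared 15, of which 14 were male. Neurog3 shared 3 with Gast, 3 with Cck and 4 with Serpina7.

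There were 8 libraries in the top for all of Aldh1a3, Gast, Cck and Serpina7, and all 8 were male, from mice DO-088, DO-095, DO-118, DO-201, DO-279, DO-289, DO-374 and DO-383. They came from all 4 bands. None of the 8 was in the top for Neurog3. A further 7 libraries, 5 male and 2 female, were in the top for 3 of the 4 genes.

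The 8 males differed in which gene stood out. Mouse DO-374 had 35.4 CPM of Gast, 478.1 CPM of Cck, 116.9 CPM of Aldh1a3, 134.3 CPM of Serpina7 and 1.103 CPM of Neurog3. Mouse DO-095 had the highest Aldh1a3, 209.3 CPM, with 3.71 CPM of Gast and 3.59 CPM of Cck. Mouse DO-201 had the highest Serpina7, 369.9 CPM, with 20.2 CPM of Cck and 0.549 CPM of Neurog3. The order of the mice thus differed from gene to gene within this set. Mice DO-396 and DO-179, the highest for Neurog3, ranked 10 and 12 among all mice for Aldh1a3, with 65.8 and 61.2 CPM, and held 3 and 6 counts of Cck.

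Genes that varied with each member over mice were counted at an r of 0.4 or more, or of -0.4 or less, with the sex and band means removed and with no test. Of the tested genes, 1.54% stood at 0.4 or more with Aldh1a3 and 1.68% at -0.4 or less. For Serpina7 these shares were 2.45% and 2.56%, for Gast 1.18% and 1.26%, and for Cck 1.12% and 1.12%. Neurog3 had fewer, 40 genes (0.236%) and 24 genes (0.142%). The median r over all tested genes lay between -0.012 and 0.012 for the 5 genes. Of these correlates, 56 stood at 0.4 or more with all of Aldh1a3, Gast, Cck and Serpina7, which is 21.7% of those of Aldh1a3, 28.4% of Gast, 30.1% of Cck and 13.6% of Serpina7, members left out. The 4 genes were measured in the same libraries, so these lists are not independent.

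The highest correlate of Aldh1a3 was Cyp26b1, which breaks retinoic acid down (r 0.62, with 0.72 in males and 0.32 in females). Other retinoid genes from a list of 14 tested were Dhrs3, which turns retinaldehyde back to retinol (r 0.49), and the retinoid receptor gene Rxra (0.47). Rbp4, the retinol carrier, had r -0.40. So 3 of the 14 stood at 0.4 or more and 1 at -0.4 or less, with a median of 0.02. Next to Cyp26b1 came Golm1, a Golgi membrane protein (0.59), Gna14, a G protein subunit (0.57), Slc39a11, a zinc transporter (0.56), and the transcription factor Mef2c (0.55). The lowest were Prkab1, a subunit of AMP-activated kinase (-0.59), the deubiquitinase Usp11 (-0.59), Mlph, which links granules to the cytoskeleton (-0.57), and Champ1 (-0.55). In females alone 10 genes stood at 0.4 or more with Aldh1a3 and 7 at -0.4 or less, against 948 and 1096 in males alone. Those 10 included the endothelial genes Esam (0.49), Flt4 (0.43) and Stab1 (0.41), which were chosen after their values were seen.

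Gast and Serpina7 both had Nucb2, the gene of the nesfatin precursor, as highest correlate (r 0.60 with Gast and 0.68 with Serpina7). With Gast followed Slc39a11 (0.58) and 4 genes of the secretory pathway, namely Prkcsh, which trims glycans in the endoplasmic reticulum (0.58), Ssr4 of the translocon (0.575), the granule protein gene Chgb (0.57) and Os9, a lectin of protein quality control (0.57). Lowest with Gast were Anp32e (-0.55), the splicing factor Srsf2 (-0.54), Usp11 (-0.53) and the p53 regulator Mdm4 (-0.52). With Serpina7 followed Serpini1, encoding neuroserpin (0.66), Smpdl3a (0.64), the co-chaperone Dnajc1 (0.62), the vitamin D carrier Gc (0.62) and the prolyl isomerase Fkbp11 (0.61). Lowest with Serpina7 were Usp11 (-0.67), Tmem201 (-0.58), Champ1 (-0.58) and the mTOR subunit gene Mlst8 (-0.58).

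With Cck the highest were Prkcsh (r 0.56) and 3 genes of vascular smooth muscle and pericytes: Notch3 (0.54), the endothelin receptor gene Ednra (0.53) and Tagln (0.52). Spg7, a mitochondrial protease (0.53), and Slc39a11 (0.52) stood among them. Lowest were Mlst8 (-0.55), Anp32e (-0.53), the nuclear export factor Cse1l (-0.52) and the ephrin receptor gene Ephb2 (-0.52).

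Neurog3 had other correlates. The arginase gene Arg1 stood highest (r 0.69, with 0.67 in males and 0.71 in females and between 0.60 and 0.75 in the 8 sex and band combinations). After it came the ephrin gene Efnb3 (0.59), Hhex, a transcription factor of delta cells (0.54), the ghrelin receptor gene Ghsr, which delta cells express (0.49), Sim1 (0.49) and the netrin receptor gene Unc5c (0.49). Among the lowest were the phosphatase gene Dusp4 (-0.46), Peli1 (-0.46) and Ptp4a1 (-0.45). The overlapping gene 2010107G23Rik had r 0.39 with Neurog3. With it removed as well, r was 0.69 for Arg1, 0.60 for Efnb3, 0.59 for Hhex and 0.54 for Ghsr. It fell from 0.43 to 0.39 for Sst and from 0.43 to 0.34 for Pyy.

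Among islet hormone and identity genes, the mice high in Aldh1a3 were not low in insulin RNA. Ins1 had r 0.23 and Ins2 0.26 with Aldh1a3, and Iapp, which encodes amylin, had 0.35 (0.50 with Serpina7). Of 16 genes of beta cell maturity and identity, 0 stood at 0.4 or more with Aldh1a3 and 2 at -0.4 or less, with a median of -0.08. These 2 were Trpm5, a calcium-activated channel gene of the beta cell (-0.54), and Slc2a2, the glucose transporter gene (-0.43). The zinc transporter gene Slc30a8 had -0.34, Mafa -0.24 and Ucn3 -0.21. Trpm5 also stood at -0.48 with Gast and -0.49 with Serpina7. With Neurog3, 0 of the 16 passed in either direction. As a description, the mean of the list had r -0.23 with Aldh1a3 (rho -0.19), -0.28 with Gast (rho -0.14) and -0.29 with Serpina7 (rho -0.27). It had -0.12 with Cck (rho 0.0086) and 0.0050 with Neurog3 (rho 0.055).

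The list of 18 tested genes of immature or stressed beta cells was drawn up with earlier results known, so its values are a description. With Aldh1a3, 4 stood at 0.4 or more and 0 at -0.4 or less, with a median of 0.26. They were Gc (0.53), the glucose-induced gene Txnip (0.44), Aass (0.42) and C1qtnf1 (0.40). The count was 5 with Gast, 4 with Cck and 5 with Serpina7, and 1 with Neurog3, Cd81 (0.43). The mean of the list had r 0.51 with Aldh1a3 (0.62 in males and 0.23 in females), 0.46 with Gast (0.58 and 0.14) and 0.47 with Cck (0.56 and 0.24). With the scores of 6 other cell types removed too, these were 0.27 with Aldh1a3, 0.26 with Gast and 0.25 with Cck.

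The list of 20 endoplasmic reticulum chaperones also holds genes of protein degradation and the transcription factor gene Xbp1. Of the 20, 9 stood at 0.4 or more with Serpina7 and 0 at -0.4 or less, with a median of 0.38. The degradation gene Derl3 (0.56), the isomerase Pdia6 (0.53) and Dnajc3 (0.51) led. With Aldh1a3 the count was 4, among them Creld2 (0.46) and the degradation gene Herpud1 (0.45), with Gast 3 and with Cck 1. Of 16 targets of the stress factors ATF4 and CHOP, 0 passed with Aldh1a3, Gast or Cck, 1 with Serpina7, Nupr1 (0.40), and 2 were at -0.4 or less with Neurog3, Atf3 (-0.44) and Ppp1r15a (-0.43).

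Genes of cell division had positive median correlations with Aldh1a3, Gast, Cck and Serpina7, while few passed 0.4. Of 18 tested, 5 stood at 0.4 or more with Serpina7, 4 with Gast, 1 with Aldh1a3 and 0 with Cck, and the medians were 0.36, 0.35, 0.33 and 0.29. Rrm2, a subunit of ribonucleotide reductase, had 0.55 with Serpina7, and the proliferation marker Mki67 had 0.41 with Gast. The median with Neurog3 was -0.13.

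**Figure D4:**
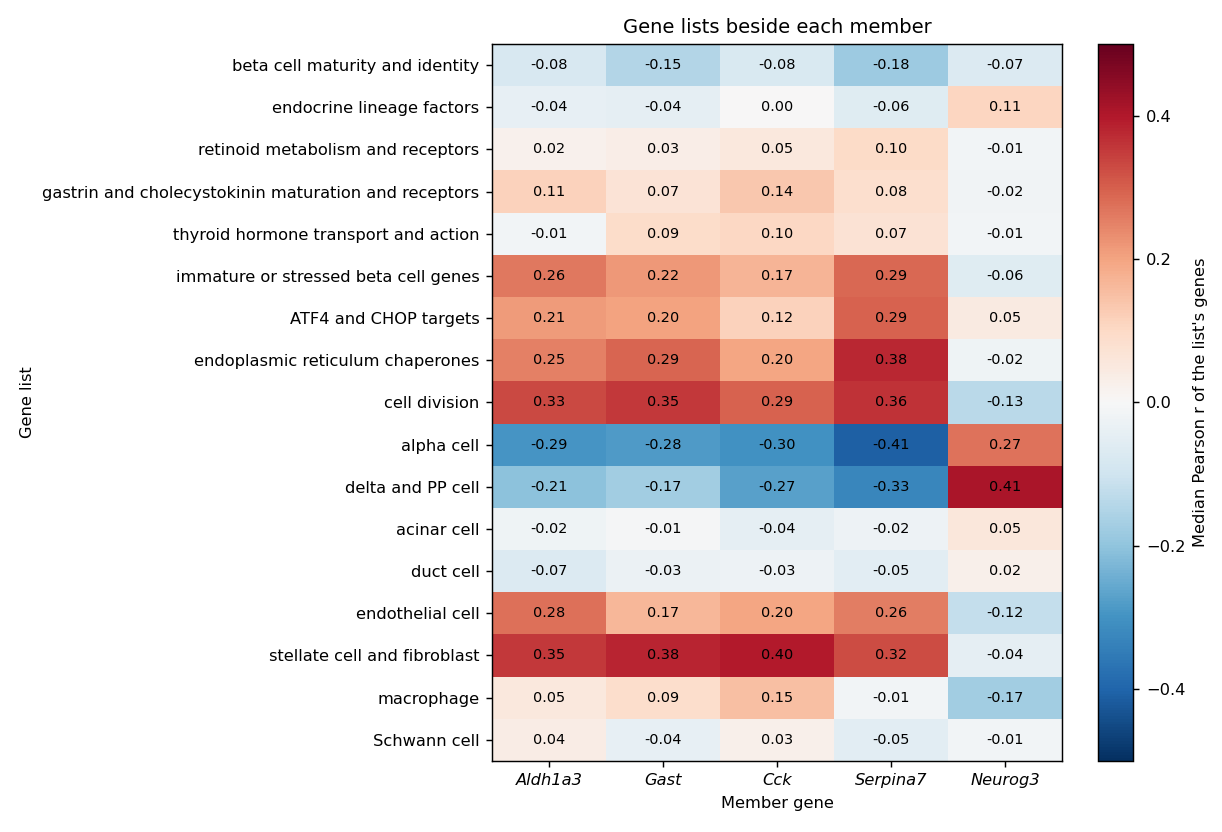
Median Pearson's r of the tested genes of 17 lists (rows) with each of the 5 genes (columns), over all mice with sex and band means removed, as colour and printed value. Aldh1a3, Gast, Cck and Serpina7 share their sign in the stress, division, stellate, endothelial, alpha and delta rows, among others. Neurog3 is opposite in the alpha and delta rows, with medians of 0.27 for alpha and 0.41 for delta and PP cell genes. It is also opposite in the division and endothelial rows (-0.13 and -0.12), and weakly so in further rows.

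Alpha and delta cell genes had medians of opposite sign with Neurog3 and with the other 4 genes. Of 9 alpha cell genes, 5 stood at -0.4 or less with Serpina7, 3 with Cck and 0 with Aldh1a3, Gast or Neurog3. At 0.4 or more stood 2 with Serpina7, Gc and Tmem27, 2 with Gast, 1 with Aldh1a3, 1 with Cck and 0 with Neurog3. Gc is also in the list of immature or stressed beta cell genes. Gcg had r -0.35 with Aldh1a3, -0.32 with Gast, -0.40 with Cck and -0.41 with Serpina7, against 0.27 with Neurog3. Of 9 delta and PP cell genes, 5 stood at 0.4 or more with Neurog3 and 0 at -0.4 or less, beside 0.236% of all genes. These were Hhex (0.54), Ghsr (0.49), Pyy (0.43), Sst (0.43) and Rbp4 (0.41), while Ppy, which encodes pancreatic polypeptide, had 0.25. With the gene that overlaps Neurog3 removed as well, Sst (0.39) and Pyy (0.34) fell under 0.4, and Hhex (0.59) and Ghsr (0.54) did not. The mean of this list had r 0.44 with Neurog3 (rho 0.41), as a description. The summed level of the 9 genes was 401.3, 2210 and 6615 CPM in the lowest, median and highest male, against 898.1, 3229 and 11210 CPM in the lowest, median and highest female. The part of the number of delta cells in the level of Neurog3 was not tested. Fev, a serotonergic and endocrine progenitor factor, also stood at 0.51 with Neurog3, as the only one of 18 endocrine lineage factors to pass. With the overlapping gene removed it had 0.48.

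**Figure D5:**
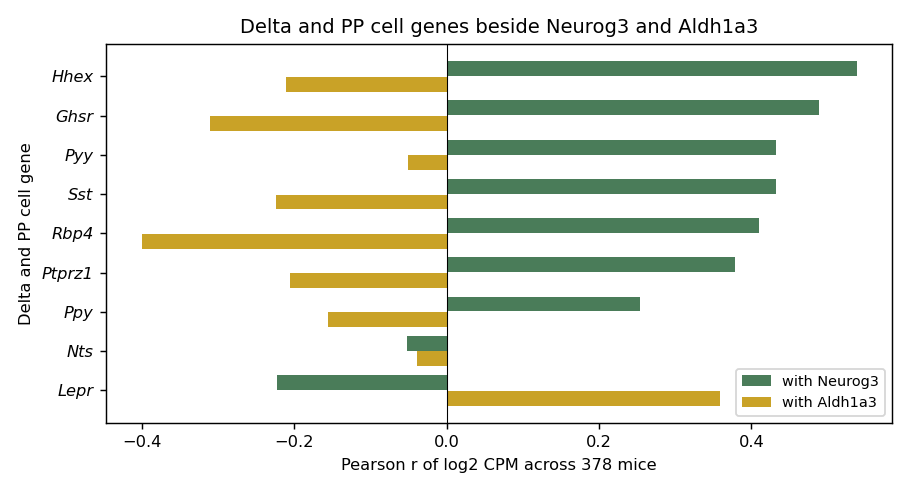
Pearson's r of the 9 delta and PP cell genes with Neurog3 (green) and with Aldh1a3 (yellow) over all mice, sex and band means removed, on a linear axis. Hhex stands at 0.54 with Neurog3 and -0.21 with Aldh1a3, and Sst at 0.43 and -0.22.

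Markers of stellate cells and fibroblasts were also among the correlates. Of 12 stellate cell and fibroblast genes, 4 stood at 0.4 or more with Aldh1a3, 5 with Gast, 6 with Cck and 1 with Serpina7, with medians of 0.35, 0.38, 0.40 and 0.32, and 0 stood at -0.4 or less. Rgs5, a pericyte gene, had 0.51 with Cck and 0.43 with Aldh1a3, and Col6a1 had 0.47 with Aldh1a3. The 12 genes summed to 123.2, 234.5 and 1788 CPM in the lowest, median and highest male, against 114.3, 204.3 and 485.0 CPM in the lowest, median and highest female, and none had a median of 0. Of 13 endothelial genes, 2, Esam (0.48) and Flt1 (0.42), stood at 0.4 or more with Aldh1a3, 1 with Serpina7 and 0 with Gast or Cck, with medians of 0.28, 0.26, 0.17 and 0.20, and 0 at -0.4 or less. They summed to 441.0, 646.4 and 1253 CPM in the lowest, median and highest male, against 414.2, 609.1 and 956.2 CPM in the lowest, median and highest female. Acinar genes did not move with Aldh1a3: 0 of 20 passed and the median was -0.02.

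With scores for 6 other cell types (stellate, endothelial, macrophage, lymphocyte, duct and acinar) removed too, the 6 correlations among Aldh1a3, Gast, Cck and Serpina7 stayed called. The lymphocyte score rested on 2 of its 12 listed genes, Cd79a and Ptprc. Alpha, delta and PP cells had no score in this removal. They were then 0.41 for Aldh1a3 with Serpina7, 0.38 for Aldh1a3 with Gast, 0.37 for Gast with Cck, 0.26 for Aldh1a3 with Cck, 0.26 for Gast with Serpina7 and 0.27 for Cck with Serpina7. The genes at an absolute r of 0.4 or more with Aldh1a3 numbered 20 under this removal, against 544 without it.

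Of the 6 tested neighbours, Lrrk1 beside Aldh1a3 and 2010107G23Rik, which overlaps Neurog3 (r 0.39, above), varied with their member. The gap between Aldh1a3 and Lrrk1 is 2.54 kb, and r was 0.51 (0.55 in males and 0.48 in females). No neighbour of Serpina7 was tested. The tested neighbours of Gast, Eif1 and Gm20394, had r -0.013 and -0.016, Trak1 beside Cck had 0.044 and Tspan15 beside Neurog3 had -0.036. Within 10 Mb of the gene lay 0.552% of the correlates of Aldh1a3 (3 of 544), against 0.437% of the tested genes. For Serpina7 these were 0.708% and 0.443%, for Gast 1.70% and 1.80%, for Cck 0.264% and 0.603%, and for Neurog3 0% and 0.591%.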

How the data were processed

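The authors deposited a table of expected counts per gene, not scaled between libraries. No aligner or counting tool is given in the sources used here, and the submitters' processing notes name only GRCm38 and DESeq2. They also deposited log2-like values after variance stabilisation, in which 0 of 16927 genes differed between number bands at an unadjusted p under 0.05 (limma); no source used here names the step that evened out the bands, so these values serve only as an alternative. Counts were rounded to whole numbers; CPM are counts per 1000000 of the table's total. The sexes were compared by the quasi-likelihood F test of edgeR 4.0.16 under R 4.3.3, with TMM factors, filterByExpr by sex and number band as covariate, over 16927 genes, Benjamini-Hochberg adjusted with a threshold of 0.05. Spread was tested with limma 3.58.1 for genes of mean CPM of at least 1. Correlations used log2 CPM (prior count 2) less the mean of sex and band, with 2-sided permutation tests of 100000 resamples within sex and band (Python 3.11.15, NumPy 2.4.6, SciPy 1.17.1).

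Total counts were 15.1 to 68.8 M per library (M, 1000000 counts), and 3 counts correspond to 0.198 CPM in the shallowest; such floors cover counting error only. Mice were grouped by the sex in their titles. P-values cover the spread between mice.

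The members and the 18 gene lists were chosen with earlier results of these data known. Some genes are in more than 1 list, among them Gc, Rbp4 and Nupr1, so the lists are not independent. Named correlates are the 6 highest and 4 lowest genes of each member with mean CPM of at least 2 and no placeholder symbol, and for the lists up to 4 genes by r with Aldh1a3 and 3 with other members. A correlate of Neurog3 is not reported here. Cck failed the filter on low counts and was given correlates by the same rule. Alternatives were DESeq2 1.42.0, other size factors, no filter, a prior count of 0.5, the deposited values, cell type scores, single sexes and bands, and leaving out high libraries, the last chosen after seeing the data. Scripts were tested on simulated data.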

Additional observations from a re-analysis of the deposited data

Results flagged for a closer look

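The correlation across mice differed between the sexes, by permutation of sex within band, in 7 of the 10 pairs. Male minus female r was 0.54 for Aldh1a3 with Serpina7, 0.62 for Gast with Cck, 0.48 for Gast with Serpina7, 0.43 for Aldh1a3 with Cck, 0.39 for Cck with Serpina7, 0.31 for Aldh1a3 with Gast and -0.33 for Aldh1a3 with Neurog3. Without male mouse DO-374 each of these kept its sign and its side of the threshold, and without number band 4 likewise. None of these runs left out male mouse DO-201.

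The sex difference of Gast differed between the number bands (interaction adjusted p 7.63e-05, edgeR). It was 0.19, 1.595, 0.55 and 2.68 on the log2 scale, male minus female, in bands 1 to 4, and without male mice DO-201, DO-374 and DO-383 the adjusted p was 0.526.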

How the results depend on the processing

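No paired analysis was possible because each mouse number occurs in 1 library. Of 726 alternative values, 635 kept their direction and their side of the threshold or moved little; where a call changed, the cause was not tested. Depth limits Gast and Cck most: Cck held 3 counts or fewer in 62.1% of males and 67.6% of females.

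Of the genes tested, 18.7% were called higher in males with the cell type scores and 10.1%, 14.4%, 9.08% and 15.03% in bands 1 to 4 alone (28.6% in all mice), and 6.58%, 13.2%, 6.71% and 11.04% were called lower in the single bands (21.9%). Gast was not called in band 1 (0.19, adjusted p 0.619) or band 3 alone (0.55, adjusted p 0.0546). In band 4 alone Gast failed the filter on low counts and was not tested. Neurog3 was called on the deposited values (-0.12). On those values 0% of the genes were called between bands by limma (0% at an unadjusted p under 0.05, 87.8% adjusted by edgeR on counts), and Gast, Serpina7 and Neurog3 each had an adjusted p of 1, as those values hold a median of only 0.0288% of their variance between bands. Without band 4, 35.2% differed between bands, with adjusted p of 0.201 for Serpina7 and 0.387 for Neurog3, and without mice DO-201, DO-374 and DO-383 the band of Gast had an adjusted p of 0.118. The interaction was called for 0.047% of genes without band 4 and 0.473% without mice DO-201, DO-374 and DO-383, against 0.898%, with adjusted p for Gast of 0.184 and 0.526. Without band 4, 1.16% of genes were wider in males (4.96% with it) and 0.0418% wider in females, who had 0.195% on the deposited values (0.0836%).

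In females alone 2 of 10 pairs were called (7 in all mice): r was 0.10 for Aldh1a3 with Cck, 0.18 for Aldh1a3 with Serpina7, 0.026 for Gast with Cck, 0.081 for Gast with Serpina7, 0.13 for Cck with Serpina7 and -0.12 for Cck with Neurog3, none called, while Aldh1a3 with Neurog3 was called at 0.32. That pair had -0.0030 in males, and was called with the cell type scores removed (0.18) and without mice DO-201, DO-374 and DO-383 (0.12). Gast with Neurog3, never called, was positive in females (0.13), in band 4 alone (0.089), with the scores removed (0.042), without mouse DO-374 (0.0099) and without the 3 mice (0.026). Cck with Neurog3 was not called in band 4 alone (-0.18). Serpina7 with Neurog3 was called without band 4 (-0.17) and was 0.11 in band 4 alone. The sex difference of r of Aldh1a3 with Neurog3 was -0.28 on the deposited values and not called. Of 90 gene and list pairs, tested by permutation on lists drawn up with earlier results known, 30 were called in females, 39 in band 4 alone and 36 with the scores removed, against 61.

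The share of genes at an absolute r of 0.4 or more moved most. With Aldh1a3 (3.21%) it was 0.1004% in females, 12.1% in males, 9.38% in band 4 alone, 0.118% with the scores removed and 1.99% without the 3 mice. With Gast (2.44%) it was 0% in females, 11.9% in males, 1.47% without band 4, 10.3% in band 4 alone, 0.13% with the scores removed, 1.607% without mouse DO-374 and 0.555% without the 3 mice. With Cck (2.24%) it was 1.12% at a prior count of 0.5, 0% in females, 10.8% in males, 5.29% in band 4 alone, 0.0236% with the scores removed, 1.31% without mouse DO-374 and 0.396% without the 3 mice. With Serpina7 (5.01%) it was 0.644% in females, 14.1% in males, 10.4% in band 4 alone and 0.993% with the scores removed. With Neurog3 (0.378%) it was 0.922% in females, 0.662% in males, 0.715% in band 4 alone and 0.23% with the scores removed. A named correlate's limit was the distance from the middle to the end of its r range over the 8 sex and band combinations. The r of the named correlates moved by at least this limit in 13 cases, all in females alone, and in none did it change sign.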
